A study of Mus musculus with 2 samples.

Results

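The genes described here encode the 4 classical families of axon guidance ligands and their receptors: semaphorins with plexins and neuropilins, netrins with Dcc and the Unc5 receptors, Slits with Robos, and ephrins with Eph receptors. They were chosen by gene symbol alone, among protein-coding genes present in the gene tables of both libraries, without regard to their levels. Of 69 mouse symbols that match these family names, 68 were found in both tables, out of 21474 protein-coding genes and 43346 Ensembl genes in all. The remaining symbol, Ntn3, was not analysed here. The 68 genes comprise 34 ligands and 34 receptors.

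Guidance ligands are secreted or held on the surface of one cell and read by receptors on another, which turn the signal into attraction, repulsion or adhesion by acting on small GTPases and the actin skeleton of the growth cone. Class 3 semaphorins bind neuropilins that signal through A-type plexins, most other semaphorins bind plexins directly, netrin attracts through Dcc and repels through Unc5, Slits repel through Robos, and ephrins signal both into the Eph-bearing cell and back into their own. In the embryonic face the same molecules are known outside the nervous system: they steer cranial neural crest cells, the axons of the trigeminal and facial nerves and growing blood vessels, and they keep neighbouring cell groups apart.

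Total RNA came from the embryonic facial prominence of B6NCrl mice at embryonic day 14.5, an inbred strain with no genetic change or treatment named in the labels. The series holds 1 group of 2 biological replicates, each made from 10.0 ng of RNA with a SMART-seq protocol. Each sample is labelled as the face of 1 embryo, taken on a different day for each, while another label calls the tissue pooled from both sexes, so the number of embryos behind a library is unclear. With no second condition, levels in the tissue and the difference between the 2 libraries could be described, and no test across embryos was possible.

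The libraries held 30919488 (replicate 1) and 37738872 (replicate 2) expected counts. Marker genes of the cell classes listed for the face were found: all members of the lists for neurons (10), glia (6), endothelium (8), epithelium (6), mesenchyme (5), muscle (5), cartilage (5), bone (5) and macrophages (4) reached 1 TPM in both libraries. None of 4 forebrain genes did, and the forebrain neuron genes Emx1 and Neurod6 stayed at or below 0.08 TPM. The cartilage list had a sum of 941 and 531 TPM in replicates 1 and 2, and the bone list a sum of 3808 and 4936 TPM. In a bulk sample of this kind, fewer cells of a type and less RNA per cell cannot be told apart.

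Levels are given as TPM, a transcript abundance scaled by transcript length and by library total, so that genes can be compared with each other. Pairs of values name replicate 1 and then replicate 2. At a threshold of 1 TPM, 59 of the 68 guidance genes (86.8%) were expressed in both libraries, where 63.9% of all protein-coding genes were. Dcc and Unc5d passed in replicate 1 alone, and 7 genes stayed below 1 TPM in both libraries: Sema3g, Sema7a, Plxnb3, Ntn4, Robo3, Epha6 and Epha10. The median guidance gene had a mean of 9.68 TPM against 5.38 TPM for all protein-coding genes, but among genes expressed in both libraries the guidance genes lay lower, at 12.1 against 17.3 TPM. Most were thus expressed at a moderate level: 34 reached a mean of 10 TPM and only Plxnb2 exceeded 100 TPM.

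**Figure D1:**
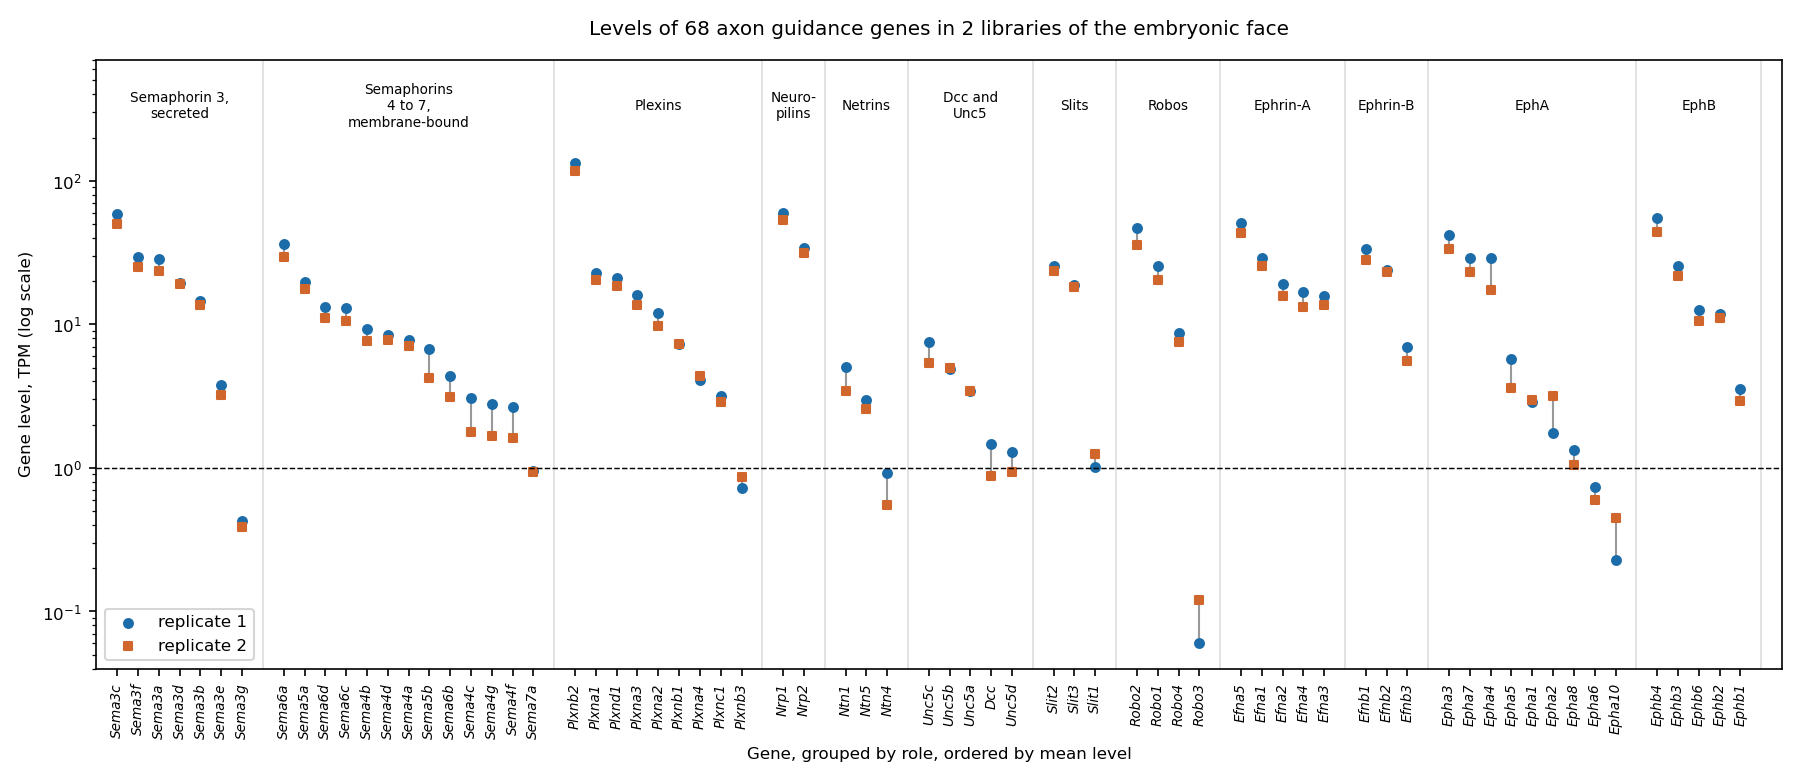
Levels of the 68 guidance genes in TPM on a log axis, with a circle for replicate 1, a square for replicate 2 and a line joining them; the dashed line marks 1 TPM. Plxnb2 is highest at 133 and 116 TPM, Robo3 lowest at 0.06 and 0.12 TPM, and every family except the netrins and Dcc with Unc5 has a member above 20 TPM in both libraries.

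Together the 68 genes summed to 1168 and 991 TPM, or 0.332% and 0.303% of the expected counts. The semaphorin ligands and receptors took 51.7% ± 0.874 (SD, n = 2) of that sum and the ephrins and Eph receptors 35.2% ± 0.717. The Slits and Robos took 10.8% ± 0.066, and the netrins with their receptors 2.30% ± 0.091. These systems hold 31, 22, 7 and 8 genes, so the shares also depend on gene number. The median gene of each had a mean of 10.9, 14.9, 18.6 and 3.11 TPM over all transcripts, highest in the Slit system. The netrin system was thus the smallest by level in both libraries, with 8 genes and a mean sum of 24.9 TPM. Over protein-coding transcripts of 1000 bases or more the Slit system no longer stood clearly highest. Its median gene was then Slit2 at a mean of 12.7 TPM, while the ephrin median lay between Epha4 (12.3 TPM) and Efna3 (14.3 TPM). The 34 receptors summed to 635 and 534 TPM, above the 34 ligands with 533 and 457 TPM in both libraries. Their shares of the sum were 54.1% and 45.9%, each with an SD of 0.343 (n = 2). Over protein-coding transcripts of 1000 bases or more the sums lay closer, at 482 and 414 TPM for receptors and 448 and 393 TPM for ligands.

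**Figure D2:**
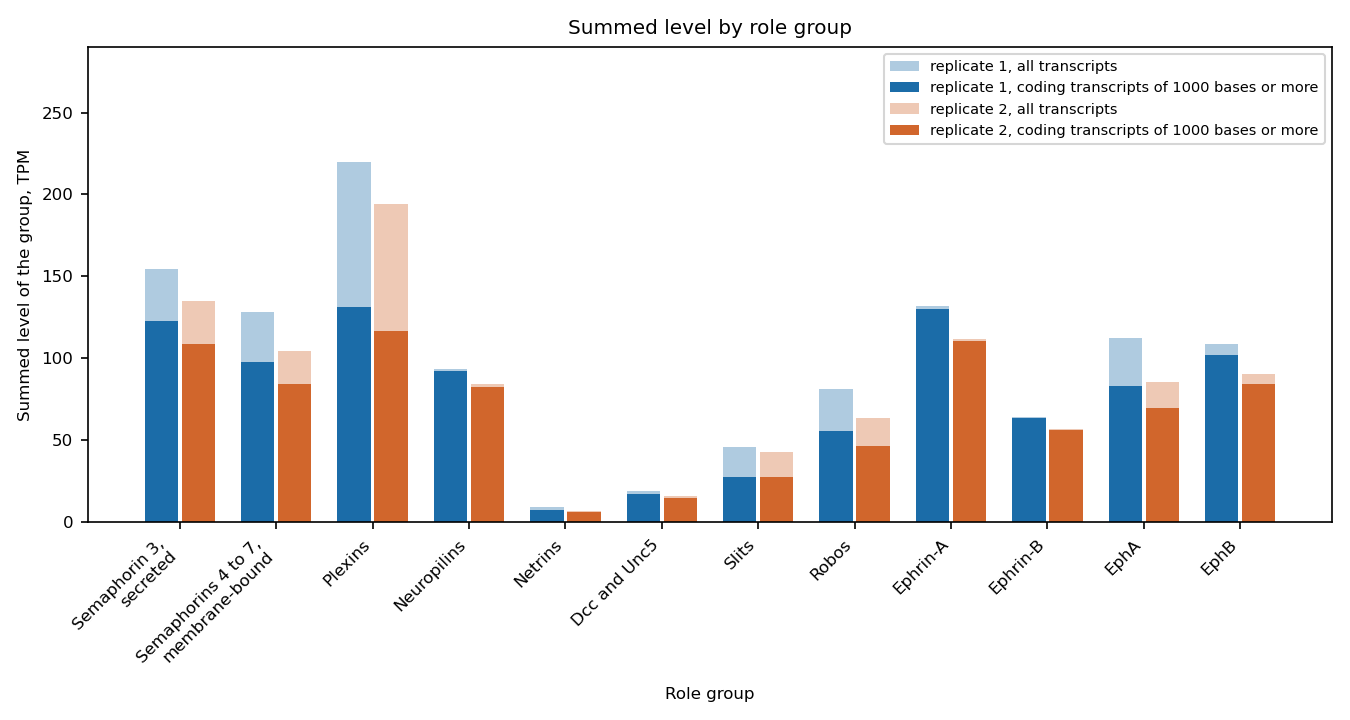
Summed TPM of each ligand or receptor group, with blue bars for replicate 1 and orange bars for replicate 2; the dark part of a bar counts protein-coding transcripts of 1000 bases or more. The plexins have the tallest bars (220 and 194 TPM) and lose most when other transcripts are left out (131 and 117 TPM), while ephrin-A bars stay almost whole (132 and 111 against 130 and 110 TPM).

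Secreted class 3 semaphorins were led by Sema3c, which guides cardiac neural crest and acts as attractant in several settings, at 58.3 and 50.05 TPM. Sema3f, a repellent read through Nrp2, followed at 29.5 and 24.9 TPM, and Sema3a, the repellent of sensory and sympathetic axons read through Nrp1, at 28.5 and 23.7 TPM. Sema3d and Sema3b came next with 19.3 and 19.1 TPM and with 14.6 and 13.7 TPM. Sema3e, which binds Plxnd1 without a neuropilin and shapes blood vessels, was much lower at 3.78 and 3.21 TPM. Sema3g, known from arterial endothelium, was the lowest with 0.43 and 0.39 TPM, from 38 and 44 counts. Members of 1 closely related class thus ran from the third highest of all 68 genes to 1 of the lowest, and the order of the 7 genes by gene TPM was the same in both libraries. Over long coding transcripts Sema3a exceeded Sema3f (21.2 and 18.6 TPM).

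Membrane-bound semaphorins spread over a lower range. Sema6a, a transmembrane ligand of Plxna2 and Plxna4, stood highest with 36.1 and 29.4 TPM. Sema5a, which carries thrombospondin repeats, had 19.8 and 17.7 TPM, and Sema6d, a ligand of Plxna1, 13.2 and 11.1 TPM. Sema6c reached 13.0 and 10.5 TPM, and the remaining class 4 to 6 members lay between 1.61 and 9.31 TPM: Sema4b, Sema4d (the ligand of Plxnb1), Sema4a, Sema5b, Sema6b, Sema4c, Sema4g and Sema4f, from high to low mean. Sema7a, which is anchored by a lipid and binds Plxnc1, was the lowest at 0.95 and 0.93 TPM. Secreted and membrane-bound ligands summed to 144.7 ± 13.6 and 116 ± 16.7 TPM (SD, n = 2), from 7 and 13 genes.

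Sema6d was estimated mainly as 2 coding forms that differ by 1 block of 57 coding bases, or 19 codons. The form with the block, Sema6d-206, took 44.7% and 49.5% of the gene's TPM, and Sema6d-203, which lacks it, 19.6% and 23.9%. The block is shown with 20 flanking coding bases on each side because it is the coding difference between the leading forms of this ligand. Capitals mark the 57 bases, at chr2:124660705-124660761 on the plus strand (mm10), from the GENCODE M21 transcript sequence.
Sema6d-206: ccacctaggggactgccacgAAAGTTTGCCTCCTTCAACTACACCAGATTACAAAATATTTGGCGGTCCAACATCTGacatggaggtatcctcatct

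Plexins, the signalling receptors of semaphorins, were led by Plxnb2, a receptor for class 4 semaphorins (chr15:89155549-89180788, minus strand, mm10). At 133 and 116 TPM it was the highest of the 68 genes and stood at the 94.9th percentile of protein-coding genes. This level rests on how its transcripts are counted. An 841-base processed transcript without coding annotation, Plxnb2-205, was assigned 68.5 and 61.0 TPM, and the 6377-base coding transcript Plxnb2-202 55.2 and 45.9 TPM. By counts the order turned round, with 1002 and 1154 for the short transcript and 6834 and 7341 for the coding one. Counted by protein-coding transcripts of 1000 bases or more, Plxnb2 had 51.8 ± 4.79 TPM (SD, n = 2), below Nrp1 and just above Ephb4 with 49.6 ± 7.93 TPM.

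Next among the plexins were Plxna1 with 23.0 and 20.4 TPM and Plxnd1, the endothelial receptor of Sema3e, with 20.96 and 18.4 TPM. Plxna3 and Plxna2, which pair with neuropilins, had 16.01 and 13.7 TPM and 11.9 and 9.78 TPM. Plxnb1 lay at 7.28 and 7.32 TPM, Plxna4 at 4.09 and 4.39 TPM and Plxnc1 at 3.16 and 2.87 TPM. Plxnb3 was the lowest at 0.73 and 0.87 TPM. All 4 A-type plexins, through which class 3 semaphorins signal, were therefore present in both libraries, in the order Plxna1, Plxna3, Plxna2 and Plxna4. Over long coding transcripts Plxna2 (11.01 and 9.23 TPM) came before Plxna3 (8.16 and 6.45 TPM).

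Both neuropilins, the binding subunits for class 3 semaphorins and co-receptors for VEGF, were among the 9 highest guidance genes. Nrp1 reached 59.8 and 53.1 TPM. Only 1 transcript was quantified for Nrp1, so a split into forms could not be seen. In GENCODE M21 this transcript has 923 codons and 3597 bases, against 5907 bases in the deposited data. Nrp2 (chr1:62703285-62818695, plus strand) reached 33.8 and 31.3 TPM and was spread over 4 coding forms. These share their 5′ 2425 coding bases and then part into 2 ends, which give the membrane-proximal, transmembrane and cytoplasmic segments known as Nrp2a and Nrp2b. The a-type end (Nrp2-204 and Nrp2-202) took 51.2% and 49.5% of the gene, or 17.3 and 15.5 TPM, and the b-type end (Nrp2-201 and Nrp2-205) 44.97% and 42.6%, or 15.2 and 13.3 TPM. Neither end dominated, and the split was nearly the same in both libraries.

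The junctions of the 4 Nrp2 forms are shown because they are where the receptor's 2 ends and their inserts begin. Each line starts with the same 20 coding bases, and capitals mark what follows: the 30 bases after the split in Nrp2-204 (chr1:62815333-62815362) and Nrp2-205 (chr1:62795709-62795738), and the inserted bases in Nrp2-202 (51 bases, 17 codons, chr1:62812534-62812584) and Nrp2-201 (15 bases, 5 codons, chr1:62786302-62786316). Coordinates are mm10, plus strand, and sequences are from GENCODE M21.
Nrp2-204: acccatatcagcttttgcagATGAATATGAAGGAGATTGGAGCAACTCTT
Nrp2-202: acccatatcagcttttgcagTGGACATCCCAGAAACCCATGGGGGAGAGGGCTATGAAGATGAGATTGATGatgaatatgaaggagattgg
Nrp2-201: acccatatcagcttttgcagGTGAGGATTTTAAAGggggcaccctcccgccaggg
Nrp2-205: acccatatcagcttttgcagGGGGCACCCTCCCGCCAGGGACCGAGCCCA
Within the a-type end the form without an insert led, with 43.0% and 41.3% of the gene against 8.17% and 8.23% for Nrp2-202. In the b-type end the order was the opposite: Nrp2-201, with its 5 extra codons, had 30.4% and 28.5%, and Nrp2-205 without them 14.6% and 14.2%.

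Netrins were the lowest ligand family. Ntn1, the attractant of commissural axons that also acts in epithelial fusion, had 5.04 and 3.44 TPM. Ntn5 had 2.99 and 2.57 TPM, and Ntn4, a basement membrane component, 0.92 and 0.55 TPM from 28 counts in replicate 1. Of their receptors, Unc5c led with 7.58 and 5.41 TPM, then Unc5b, which is known from endothelium, with 4.86 and 4.95 TPM and Unc5a with 3.45 and 3.42 TPM. Unc5d lay at 1.30 and 0.94 TPM. Dcc, the receptor for netrin attraction, was near the threshold with 1.47 and 0.88 TPM from 147 counts in replicate 1. The receptors of netrin repulsion, the 4 Unc5 genes, thus all had a mean near or above that of Dcc, with Unc5d and Dcc indistinguishable beyond the spread of the 2 libraries (1.12 ± 0.255 and 1.18 ± 0.417 TPM, SD, n = 2).

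Unc5a was read mostly as the shorter of its 2 forms. Unc5a-202 took 78.3% and 88.4% of the gene, while Unc5a-201, with 1 additional exon that encodes a thrombospondin repeat of the extracellular part, took 8.58% and 8.81%. The exon (168 bases, 56 codons, chr13:54997193-54997360, plus strand, mm10) is shown because leaving it out removes a whole extracellular domain from the leading form. Capitals mark the exon and lower case the 20 coding bases on each side.
Unc5a-201: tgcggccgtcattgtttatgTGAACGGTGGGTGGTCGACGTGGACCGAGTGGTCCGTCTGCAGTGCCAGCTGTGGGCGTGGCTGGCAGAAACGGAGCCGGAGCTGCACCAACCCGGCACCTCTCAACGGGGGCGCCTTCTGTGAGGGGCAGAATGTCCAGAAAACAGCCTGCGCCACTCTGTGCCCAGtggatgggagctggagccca

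Slits, the secreted ligands of Robo receptors, were represented by Slit2 at 25.7 and 23.4 TPM and Slit3 at 18.8 and 18.3 TPM. Slit1, the family member best known from the brain, was at 1.01 and 1.25 TPM, just above the threshold. Counted by long coding transcripts alone, Slit1 had 0.8 and 0.92 TPM and lay below the threshold in both libraries. Among the receptors Robo2 had 47.0 and 35.6 TPM and Robo1 25.3 and 20.2 TPM. Over protein-coding transcripts of 1000 bases or more Robo2 had 21.8 and 18.8 TPM, below Robo1, and Slit2 (13.5 and 11.9 TPM) no longer exceeded Slit3 in replicate 2 (13.4 and 14.4 TPM). Robo4, the endothelial member, had 8.64 and 7.58 TPM. Robo3, which sets midline crossing of commissural axons and has lost Slit binding in mammals, was the lowest of all 68 genes, at 0.06 and 0.12 TPM from 4 and 10 counts.

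Robo4 and Robo3 are also the closest pair among the 68 genes. On chromosome 9 they converge tail to tail, Robo4 on the plus strand (chr9:37401897-37415115) and Robo3 on the minus strand (chr9:37415669-37433246), with 553 bases between their 3′ ends and mean levels of 8.11 and 0.09 TPM. Their promoters, from 250 bases before to 50 after the RefSeq start (GRCm38.p6), are shown because the expressed gene and the nearly silent one differ sharply in CpG content. Capitals mark each CG: 17 in Robo3 (chr9:37433126-37433425, minus strand) and 2 in Robo4 (chr9:37401722-37402021, plus strand).
Robo3: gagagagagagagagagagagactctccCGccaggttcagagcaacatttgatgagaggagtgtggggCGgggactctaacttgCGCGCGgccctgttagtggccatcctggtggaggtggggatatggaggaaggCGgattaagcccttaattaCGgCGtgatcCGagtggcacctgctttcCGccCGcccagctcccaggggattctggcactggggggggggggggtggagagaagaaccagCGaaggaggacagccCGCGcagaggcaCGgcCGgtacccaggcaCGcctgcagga
Robo4: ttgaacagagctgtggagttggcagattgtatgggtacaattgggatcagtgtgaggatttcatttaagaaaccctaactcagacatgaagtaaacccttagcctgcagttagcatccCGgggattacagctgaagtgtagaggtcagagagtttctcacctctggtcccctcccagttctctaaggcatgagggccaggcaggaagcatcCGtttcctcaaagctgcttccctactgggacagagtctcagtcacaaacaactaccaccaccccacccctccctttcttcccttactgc
The motif searched was CG, which reads the same on both strands. The CpG-rich promoter was the one typical of the guidance genes: among 58 with a RefSeq promoter the median was 22.5 CG, and 49 (84.5%) had 10 or more. Over 16317 protein-coding genes the median was 14 and 59.7% had 10 or more, and over the 10681 of these expressed in both libraries it was 21 and 81.4%. Of the 58 guidance genes, the 7 not expressed in both libraries had a median of 17 CG. Over the 5636 of the 16317 protein-coding genes not expressed in both it was 3. The count describes the sequence of each promoter alone, and methylation was not measured.

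Ephrins were uniformly expressed: all 8 passed 1 TPM in both libraries, and none was below 5.56 TPM. Among the lipid-anchored ephrin-A ligands, Efna5, a repellent in topographic maps, led with 51.0 and 43.0 TPM. Efna1, a ligand best known from endothelium and epithelium, had 28.9 and 25.7 TPM and Efna2 19.1 and 15.9 TPM. Efna4 with 16.8 and 13.3 TPM and Efna3 with 15.8 and 13.6 TPM had almost equal means, 15.04 ± 2.49 and 14.7 ± 1.57 TPM (SD, n = 2). Efna1, Efna3 and Efna4 lie in a row on the minus strand of chromosome 3, with 32756 and 10424 bases between them, and all 3 were expressed.

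The transmembrane ephrin-B ligands were led by Efnb1, the X-linked gene of human craniofrontonasal syndrome, with 33.4 and 27.9 TPM. Efnb2, the arterial ligand of Ephb4, followed at 24.0 and 23.2 TPM and Efnb3, a midline repellent of the spinal cord, at 6.96 and 5.56 TPM. Of the 8 ephrins 7 had at least 97% of their level in 1 coding transcript in both libraries, and the eighth, Efna3, 94.3% and 100%. For Efna2, Efna4 and Efnb3 this share was fixed, because only 1 transcript was quantified for each. In the other ephrins, with 2 or 3 quantified transcripts, 1 coding transcript held almost the whole level.

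EphA receptors were uneven. Epha3 was highest with 41.9 and 33.4 TPM, then Epha7 with 29.1 and 23.1 TPM and Epha4, which binds ephrins of both classes, with 28.8 and 17.2 TPM. A wide gap followed. Epha5 had 5.77 and 3.62 TPM, Epha1 2.86 and 2.97 TPM, Epha2 1.74 and 3.17 TPM and Epha8 1.34 and 1.04 TPM. Epha6 was at 0.74 and 0.60 TPM, and Epha10, which lacks kinase activity, at 0.23 and 0.45 TPM.

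EphB receptors were all expressed. Ephb4, the venous endothelial receptor of Efnb2, was highest with 55.3 and 44.0 TPM, and Ephb3 had 25.7 and 21.9 TPM. Ephb6, whose kinase is inactive, reached 12.6 and 10.6 TPM, close to Ephb2 with 11.8 and 11.2 TPM. Ephb1 was the lowest at 3.54 and 2.94 TPM. The 9 EphA and 5 EphB genes summed to 99.1 ± 19.0 and 99.8 ± 12.9 TPM (SD, n = 2) over all transcripts. Over long coding transcripts EphB was higher in both libraries, at 102 and 84.3 TPM against 82.8 and 69.3 TPM for EphA.

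Epha7 (chr4:28813131-28967499, plus strand) was read as both signalling and truncated receptor. The full-length forms Epha7-201 and Epha7-203 summed to 12.6 and 10.1 TPM (43.2% and 43.5% of the gene). The forms Epha7-202 and Epha7-204, which end before the kinase domain, summed to 4.55 and 5.49 TPM (15.6% and 23.7%), and 2 processed transcripts, Epha7-205 and Epha7-208, took 34.4% and 31.5%. Truncated EphA7 is known to blunt signalling by the full-length receptor and to turn repulsion by ephrin-A5 into adhesion. Epha7-202 lay at 4.55 and 3.63 TPM, and Epha7-204 was listed at 0 in replicate 1 and at 1.86 TPM in replicate 2.

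Epha7-201 has 2994 coding bases and Epha7-202 has 1830, and the point where they part is shown because it decides whether the kinase is encoded. Each line starts with the same 20 coding bases, and capitals mark the 32 coding bases that follow in the full-length form (chr4:28947528-28947559) and in the truncated form (chr4:28946219-28946250), on the plus strand of mm10 from GENCODE M21.
Epha7-201: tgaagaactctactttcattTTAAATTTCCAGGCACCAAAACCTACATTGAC
Epha7-202: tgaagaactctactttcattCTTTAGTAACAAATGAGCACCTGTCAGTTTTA
For Epha7-202 these 32 bases are all that remains of the coding sequence after the split.

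EphB forms differed by smaller blocks. Ephb4-203, with 27 additional coding bases, took 15.8% and 14.6% of Ephb4, and Ephb4-202, which lacks 156, took 17.8% and 11.2%. Ephb2-201 took 60.9% and 62.5% and Ephb2-202, which differs by 3 coding bases, 27.9% and 23.1%. Ephb1-202, 123 coding bases shorter than Ephb1-201, held 27.6% of Ephb1 in both libraries.

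**Figure D3:**
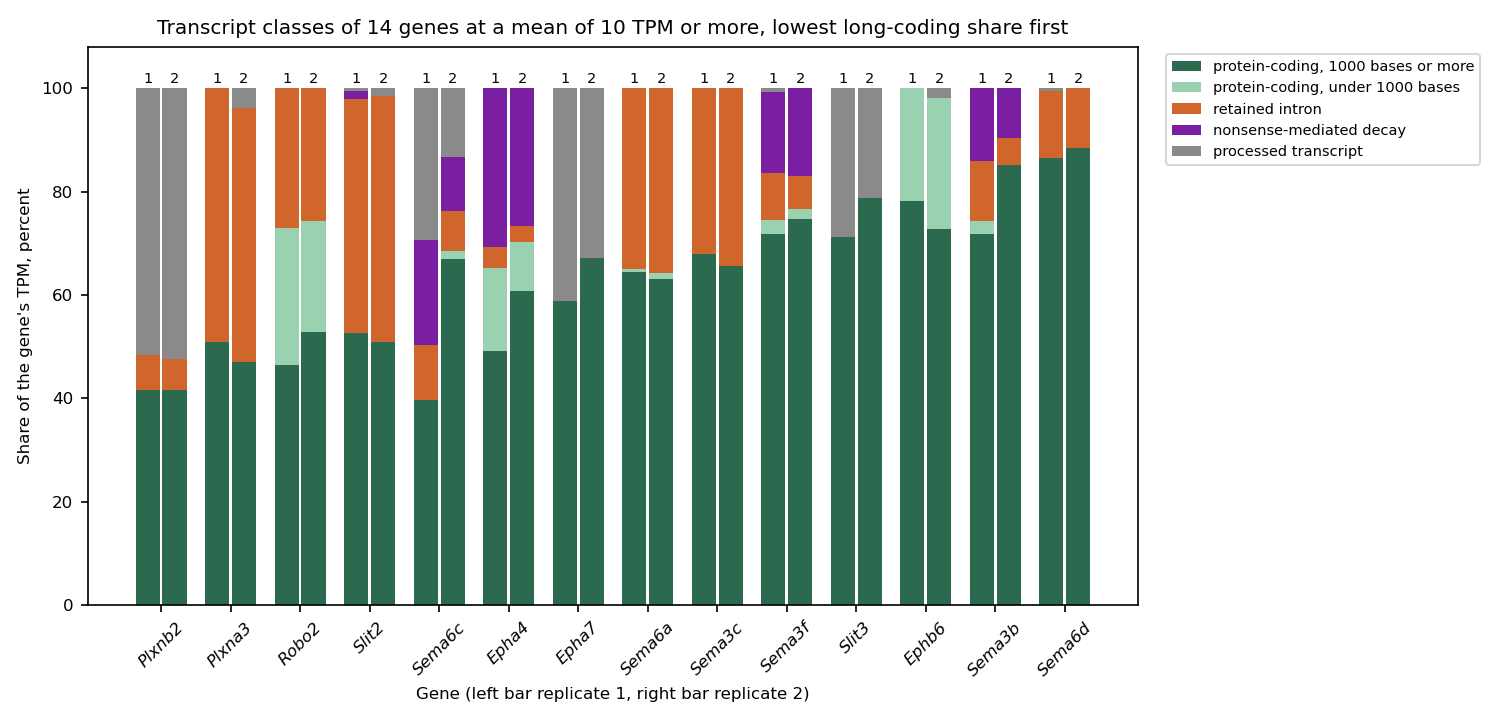
Transcript classes of the 14 genes with the lowest long-coding share among those at a mean of 10 TPM or more, as percent of the gene's TPM, with replicate 1 on the left and replicate 2 on the right of each pair. Plxnb2 is led by a processed transcript (51.5% and 52.4%), Slit2 and Plxna3 hold 45.4% to 49.0% as retained-intron transcripts, and Epha4 holds 30.7% and 26.6% as transcripts marked for nonsense-mediated decay.

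Since a gene's TPM includes every annotated transcript, the levels were split by transcript class. Of 61 guidance genes at a mean of 1 TPM or more, 33 (54.1%) had at least 90% of their level in protein-coding transcripts of 1000 bases or more in both libraries, where 53.7% of protein-coding genes did. The median share was 93.6% and 96.9%, where over all protein-coding genes it was 94.7% and 94.9%. Plxnb2 was the only guidance gene below 50% in both libraries (1.64% of 61), where 16% of protein-coding genes were. Below 50% in a single library were 5 guidance genes in replicate 1 and 2 in replicate 2, Plxnb2 counted in each, where 17.4% and 17.3% of protein-coding genes were. Retained-intron transcripts made up 20% or more in both libraries for 7 genes (11.5%): Slit2, Plxna3, Epha5, Sema6a, Sema3c, Robo2 and Slit1. The same held for 6.96% of protein-coding genes. Slit1 was among the 7 only through the 516-base Slit1-204, from 1.81 and 3.46 counts. In Slit2 the coding transcript Slit2-202 took 48.3% and 47.2% and the retained-intron transcript Slit2-207 32.5% and 27.2%. Robo2 was split further, into Robo2-202 (27.8% and 33.3%), the retained-intron Robo2-209 (23.7% and 22.8%) and the 535-base Robo2-204 (16.4% and 17.6%). Plxna3 was shared between the coding Plxna3-201 (51.0% and 47.1%) and the 984-base retained-intron Plxna3-203 (32.4% and 26.5%). In all 3 genes a coding transcript led in both libraries, though in Robo2 the longest coding form, Robo2-203 with 1508 codons, held 9.10% and 12.2%.

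The same transcript led in both libraries in 43 of 48 guidance genes with 2 or more transcripts and a mean of 1 TPM or more (89.6%), and in 90.5% of such protein-coding genes. With no minimum level it was 46 of 53, and the exceptions added were Epha10 and Robo3, from few counts. The 5 exceptions at 1 TPM or more were all membrane-bound semaphorins. Sema4a was led by Sema4a-214 in replicate 1 (47.2% and 29.3%) and by Sema4a-201 in replicate 2 (24.5% and 35.8%), and both encode 760 codons. Sema6b was assigned to Sema6b-201 alone in replicate 1. In replicate 2 it was split, with 46.5% for Sema6b-201 and 53.5% for Sema6b-202. Both have 886 codons in GENCODE M21, where Sema6b-202 has 3156 bases against 3847 in the deposited data. Sema4g and Sema6a each had a pair of leading forms within 6 percentage points of each other: Sema4g-203 with 42.5% and 41.5% beside Sema4g-201 with 36.9% and 43.4%, and Sema6a-202 with 25.8% and 24.6% beside Sema6a-201 with 25.3% and 28.2%. Sema4c had only 137 counts in replicate 1, where its retained-intron transcript Sema4c-204 led with 30.6%, and Sema4c-208 held 24.1% and 52.0%. In Sema4a, Sema4g and Sema6b the alternating forms have M21 coding sequences of equal length.

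Between the libraries the guidance genes differed little. On the log2(TPM + 1) scale, which understates differences of low genes, 0 of 42 genes at a mean of 5 TPM or more passed 2-fold, where 0.467% of protein-coding genes did (0.403% higher and 0.0641% lower in replicate 2). The median log2 difference, replicate 2 minus replicate 1, was -0.23 for the guidance genes and -0.15 for all protein-coding genes at that level, so part of the lower TPM in replicate 2 was shared by the whole table. Of the 42 genes, 38 (90.5%) lay within 0.2 of the median protein-coding gene, where 77.6% of protein-coding genes did, and 32 lay below it. The SD of the log2 differences was 0.136 for the guidance genes and 0.228 for all protein-coding genes. With 2 libraries this describes how alike they are and carries no test.

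**Figure D4:**
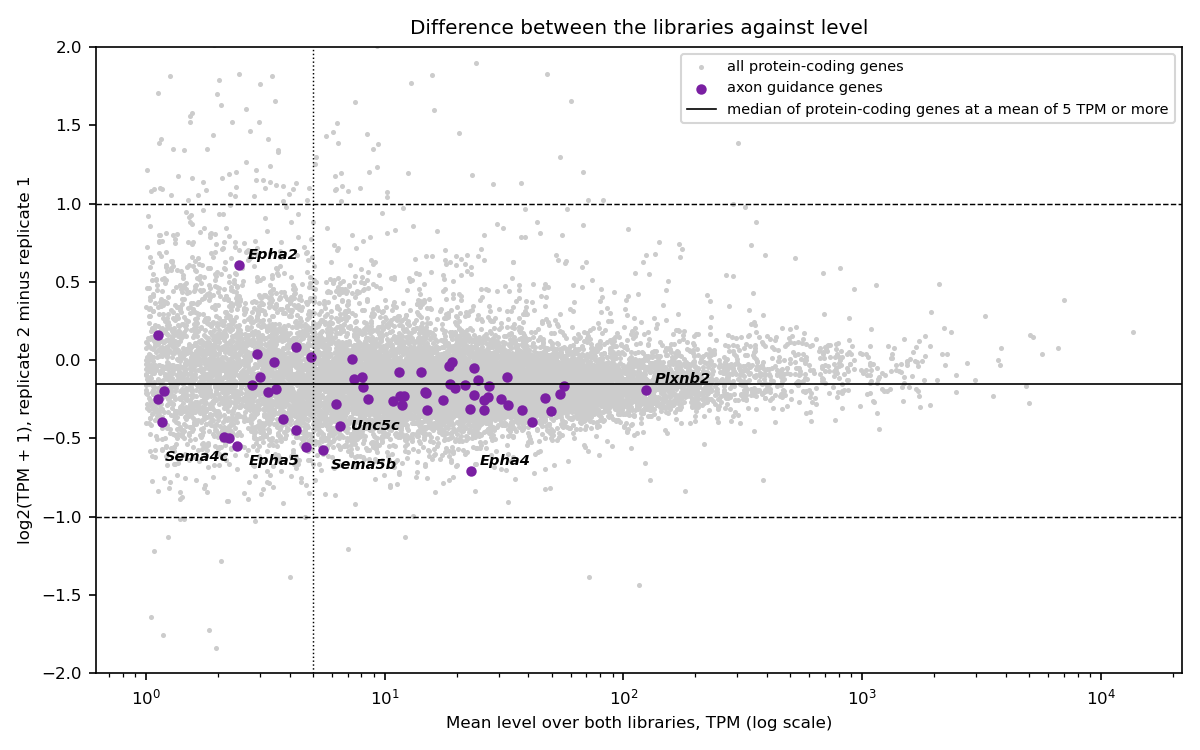
Difference in log2(TPM + 1), replicate 2 minus replicate 1, against mean TPM (log axis) for protein-coding genes (grey) and guidance genes (purple) at a mean of 1 TPM or more; dashed lines mark 2-fold, the dotted line a mean of 5 TPM, the solid line the median gene, and 14 protein-coding genes lie beyond the axis. No purple point passes 2-fold, Epha4 (-0.71) is lowest and Epha2 (0.61) highest.

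Among genes singled out after their values were seen, Epha4 (chr1:77367185-77515088, minus strand) lay farthest below among the 42 genes by TPM, with a log2 difference of -0.71. Its counts gave a ratio of counts scaled to the library total (CPM) of 0.715 (exact 95% interval 0.673 to 0.758, counting error only), a smaller difference than the TPM gave. The coding transcript Epha4-201 was at 14.2 and 10.5 TPM, the transcript marked for decay, Epha4-207, at 8.86 and 4.55 TPM, and the 614-base Epha4-203 at 4.64 and 1.64 TPM. Counted by long coding transcripts alone the log2 difference was -0.41. Unc5c (-0.47) and Sema5b (-0.42) lay lower than Epha4 by that measure, and by gene TPM at -0.42 and -0.57. At means below 5 TPM, Epha5 (-0.55), Sema4c (-0.55), Sema4g (-0.50), Sema4f (-0.49) and Ntn1 (-0.44) were also lower in replicate 2 by gene TPM. For Sema4c the CPM ratio was 0.831, and its exact 95% interval of 0.652 to 1.06 included equal levels. The intervals of Epha5, Sema4g, Sema4f and Ntn1 did not. By long coding transcripts the log2 difference of Sema4c was -0.12. Beside these, the neuron list had a median log2 difference of -0.20 and a sum of 348 and 295 TPM, and the cartilage list -0.76, and their part in the result was not tested.

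Epha2, a receptor known from epithelia, was higher in replicate 2. It had 1.74 and 3.17 TPM from 131 and 308 counts, a ratio of counts scaled to the library total (CPM) of 1.93 (exact 95% interval 1.57 to 2.38, counting error only) and a log2 difference of 0.61, at a mean below the 5 TPM required for a call. The epithelium list was lower in replicate 2: its median log2 difference was -0.25 and its sum 783 and 702 TPM. Robo3 had a ratio of 2.05, but with 4 and 10 counts the interval ran from 0.591 to 8.95. In all, 9 of the 68 genes had a higher TPM in replicate 2, of which Plxnb1, at 7.28 and 7.32 TPM, was the only one of the 42 at a mean of 5 TPM or more, where 18.3% of protein-coding genes were higher. By CPM, 15 of the 68 genes and 6 of the 42 were higher in replicate 2, where 31.8% of protein-coding genes were.

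Further guidance genes share neighbourhoods within 1 Mb. Sema3d, Sema3a and Sema3e follow each other on the plus strand of chromosome 5 at mean levels of 19.2, 26.1 and 3.50 TPM, and Sema3b and Sema3f lie 72270 bases apart on chromosome 9 at 14.1 and 27.2 TPM. Robo1 and Robo2 face each other across 845743 bases of chromosome 16 at 22.8 and 41.3 TPM. Ephb2 and Epha8 are 93430 bases apart on chromosome 4 at 11.5 and 1.19 TPM, and Plxnb3 and Plxna3 lie on the X chromosome at 0.80 and 14.9 TPM. Neighbours of 1 family thus ranged from nearly equal levels, in Efna3 and Efna4, to the wide gap between Robo4 and Robo3.

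Exons of 16 guidance genes overlap another gene, 14 of them on the opposite strand, and the same count over all protein-coding genes was not made. The sources used here do not say whether counting used strand. In the deposited counts, the fractional values of Epha1 and its opposite-strand neighbour Zyx add to whole numbers in each library (179.21 and 5565.79 in replicate 1). The same holds for Plxna1 with Gm26811, Plxnb1 with Gm7628, Ephb1 with Gm26846 and Efna3 with Gm15998. Reads were thus shared across strands in these pairs. In 3 cases the opposite gene reached 1 TPM in both libraries. Epha1 (2.86 and 2.97 TPM) overlaps Zyx, an actin-associated protein gene at 120 and 111 TPM. Ntn5 overlaps Sec1 (2.03 and 1.64 TPM) and Unc5a overlaps Hk3 (1.73 and 1.39 TPM). Ntn5 and Sec1 had fractional counts, while Unc5a and Hk3 had whole counts in both libraries, which show no split reads. The levels of Epha1, Ntn5 and the other guidance genes with fractional counts are uncertain to that extent.

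Downstream and accessory genes of the same pathways were expressed alongside. Of 62 listed co-ligands, co-receptors, GTPases and cytoskeletal effectors, 57 reached 1 TPM in both libraries, where 63.9% of all protein-coding genes did. The highest were Cfl1, the actin-severing cofilin, with 1658 and 1472 TPM, and the GTPases Cdc42 with 622 and 543 TPM and Rac1 with 320 and 303 TPM. Dpysl2, the CRMP2 protein of semaphorin signalling, had 195 and 170 TPM, and Neo1, a Dcc relative that binds netrins and RGM proteins, 28.0 and 23.9 TPM, far above Dcc itself. The 5 that stayed below in both libraries were Ntng2, Draxin, Dscaml1, Rnd1 and Dscam, the last of these the lowest at 0.36 and 0.20 TPM. Dscam and Draxin are a netrin receptor and a netrin-binding guidance protein of the nervous system. None of the 50 pathway genes at a mean of 5 TPM or more passed 2-fold between the libraries, where 0.467% of protein-coding genes did. Their median log2 difference was -0.19, close to the -0.15 of all protein-coding genes at that level.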

How the data were processed

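Total RNA was sequenced in 2 libraries of 1 group, numbered as biological replicates in the labels. The authors deposited gene and transcript tables per library for build mm10, with GENCODE M4 named in their companion text. The deposited expected counts are estimated reads and need not be whole, the deposited TPM and FPKM values are scaled by effective length, per the file headers, and the transcript percent is the authors' share of a gene's TPM. The aligner, the quantifier and the use of strand were not given in the sources used here.

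Symbols, positions, transcript types and sequences were taken from GENCODE M21 (also mm10) through Ensembl identifiers stripped of their version (332 of 334 transcripts matched), and promoters from RefSeq. Some matched transcripts differ in length between M21 and the deposited data: Robo2-201 has 886 and 4764 bases, and Dcc-202 10323 and 5219. The cut at 1000 bases used the deposited lengths, while types and codon numbers are those of M21. Of the 68 genes 60 had whole counts in both libraries, which leaves 8 with shared reads: Plxna1, Efna4, Efna3, Plxnb1, Ephb1, Epha1, Ntn5 and Sema4c. The gene families, the pathway list, the marker lists and the rule for named genes (the 3 highest and the lowest of each group, genes past 2-fold, changed or evenly split leading transcripts) were chosen with earlier results of these data known. No p-value was computed. Exact binomial intervals at the 95% level used rounded counts. Alternatives were other thresholds, pseudocounts, units, scalings and filters and each replicate left out. The 2-fold rule alone was tested on simulated data. Scaling factors came from edgeR 4.0.16 and DESeq2 1.42.0 in R 4.3.3, which were given rounded expected counts. All else ran in Python 3.11.15 with pandas 2.3.3, scipy 1.17.1, numpy 2.4.6 and matplotlib 3.10.9.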

Additional observations from a re-analysis of the deposited data

How the results depend on the processing

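The number of guidance genes expressed in both libraries, 59, was 65 at 0.5 TPM, 53 at 2 TPM, 57 at 1 FPKM and 59 to 61 with a replicate left out. None of the 42 genes at a mean of 5 TPM or more passed 2-fold under any pseudocount, unit or scaling tried, nor any of the 68 on log2(TPM + 1) without the filter, where genes below 1 TPM can hardly pass; by CPM ratio, 1 of the 68, Robo3, did, from few counts. The median log2 difference of -0.23 became -0.071 under edgeR TMM and -0.073 under DESeq2 scaling, which also took the median protein-coding gene from -0.15 to about 0 (-0.002 and -0.004); below that median lay 30 to 34 of the 42 genes under these and the other units and pseudocounts. By CPM, which favour long transcripts, the semaphorin, netrin, Slit and ephrin shares were 56.7%, 2.80%, 11.7% and 28.9%. Over protein-coding transcripts of 1000 bases or more, an alternative chosen after seeing the data, they were 48.1%, 2.604%, 9.07% and 40.2%. The order of the 4 systems by share of the sum held throughout. Transcript shares are model estimates given here without their own error, and short transcripts gain a high TPM from few counts. No paired analysis was possible because there is only 1 group.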
